A study of Mus musculus with 4 samples.

Results

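The cytochrome P450 (Cyp) genes of the mouse were scored for accessible chromatin in a collecting duct cell line. The members were all protein-coding RefSeq genes of the mm10 assembly whose symbol is Cyp followed by a digit, 99 of 21887 protein-coding genes on chromosomes 1 to 19, X and Y. They fell into 71 genes of tandem clusters, 19 single-copy genes of steroid, sterol and vitamin metabolism and 9 others. The single-copy class includes neighbours on chromosomes 15 (Cyp11b1 and Cyp11b2) and 19 (Cyp26a1 and Cyp26c1).

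The libraries were ATAC-seq, in which the transposase Tn5 inserts sequencing adapters into exposed DNA. The cells were mpkCCD clone 11, 1 clone of an immortal mouse line with features of cortical collecting duct principal cells. One group was given dDAVP, a vasopressin analog that acts on the V2 receptor, at 0.1 nM for 30 minutes, and the other its vehicle, with 2 libraries in each and 50000 cells per library. Before that, both groups had grown in medium with dialyzed serum, insulin, dexamethasone, triiodothyronine, epidermal growth factor, selenite and transferrin, and at confluence on permeable supports both were moved to medium free of serum and hormones, so both had been exposed to a glucocorticoid and a thyroid hormone. Whether the libraries of a group came from separate cultures is not stated in the labels; their spread may therefore be technical.

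P450 enzymes are heme proteins that insert 1 oxygen atom into their substrate, with electrons from P450 oxidoreductase in the endoplasmic reticulum or from ferredoxin in mitochondria. Members of the expanded Cyp2, Cyp3 and Cyp4 families oxidise drugs, other foreign compounds and fatty acids, most of them in the liver. The single-copy members make or break down steroid hormones, cholesterol, bile acids, vitamin D and retinoic acid, and in the kidney the proximal tubule makes active vitamin D with Cyp27b1.

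The peak lists held 291454 and 205771 peaks in the dDAVP libraries and 393956 and 206972 in the vehicle libraries, so replicate 1 of each group had the longer list. They give positions only: the number of reads is unknown, and a gene without a peak is one where none was called, not one shown to be closed. A gene-end peak is a peak with at least 1 bp within 1 kb of either outermost end of the gene, and its width is that of the widest such peak. A gene-end peak called in each of the 4 libraries is called constant below, a word that refers to presence and not to width. Among all protein-coding genes 74.2% and 69.4% had a gene-end peak in the dDAVP libraries and 78.2% and 70.0% in the vehicle libraries. Of the cell type lists, 6 of 9 principal cell genes, 3 of 6 proximal tubule genes, 3 of 6 genes of steroid-making cells and 2 of 6 hepatocyte genes had a constant gene-end peak, where all protein-coding genes had 65.0%, so the principal cell share (66.7%) was close to that of all genes. Aqp2, the water channel that vasopressin regulates, had a constant one, while Avpr2, the V2 receptor gene, Aqp3 and Scnn1b had one in 2 libraries each. The hepatocyte genes Apoa1 and Serpina1a had a constant one, and Alb and Ttr had none in any library.

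Before the values, the upstream sequence of 7 members is shown, so that the CpG and motif content of members with wide gene-end peaks can be set beside that of members without any. Each sequence is the 250 bases before the annotated start, 5′ to 3′ on the gene's own strand, from RefSeq (GRCm38.p6, the same assembly as mm10). Capitals mark matches, on either strand and with overlaps allowed, to 7 short motifs. The general promoter motifs searched were the TATA box written as TATAAA, the box that binds the factor NF-Y written as CCAAT, and the box that binds the factor Sp1 written as GGGCGG. The core of the cAMP response element was searched as TGACG, and the core of the element that binds the Ah receptor as GCGTG. Part of the element that binds steroid receptors was searched as TGTTCT, and part of the elements that bind other nuclear receptors as AGGTCA. Members were taken by the mean rank of their gene-end width among those with a RefSeq promoter sequence, which the tandem member Cyp4f17, of better rank than the 2 printed, lacks. The first 2 are single-copy members, of which Cyp26a1 tied with Cyp11a1.
Cyp46a1, chr12:108334066-108334315, plus strand: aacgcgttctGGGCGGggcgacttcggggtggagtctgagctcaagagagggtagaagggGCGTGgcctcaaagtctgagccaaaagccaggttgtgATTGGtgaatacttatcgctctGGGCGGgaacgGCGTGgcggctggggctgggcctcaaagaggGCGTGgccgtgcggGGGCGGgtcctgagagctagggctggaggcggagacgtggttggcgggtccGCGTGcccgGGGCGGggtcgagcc
Cyp26a1, chr19:37697558-37697807, plus strand: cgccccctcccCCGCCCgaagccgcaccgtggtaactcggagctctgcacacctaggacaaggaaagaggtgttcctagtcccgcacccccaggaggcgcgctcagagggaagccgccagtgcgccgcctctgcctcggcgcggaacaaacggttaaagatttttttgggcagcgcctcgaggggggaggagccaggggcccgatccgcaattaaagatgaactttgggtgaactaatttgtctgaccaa
The next 2 are tandem members, and Cyp1b1 is the widest of the other members by mean rank.
Cyp4f13, chr17:32947362-32947611, minus strand: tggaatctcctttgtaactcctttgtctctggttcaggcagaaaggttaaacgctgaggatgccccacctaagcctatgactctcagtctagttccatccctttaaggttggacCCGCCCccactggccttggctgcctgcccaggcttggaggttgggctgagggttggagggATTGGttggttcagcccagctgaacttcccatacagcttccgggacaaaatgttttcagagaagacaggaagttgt
Cyp2d11, chr15:82394023-82394272, minus strand: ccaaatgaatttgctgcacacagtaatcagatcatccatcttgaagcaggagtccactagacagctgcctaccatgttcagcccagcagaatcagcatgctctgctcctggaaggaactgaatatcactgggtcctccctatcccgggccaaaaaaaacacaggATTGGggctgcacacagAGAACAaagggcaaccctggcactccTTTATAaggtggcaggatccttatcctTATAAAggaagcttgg
Cyp1b1, chr17:79715062-79715311, minus strand: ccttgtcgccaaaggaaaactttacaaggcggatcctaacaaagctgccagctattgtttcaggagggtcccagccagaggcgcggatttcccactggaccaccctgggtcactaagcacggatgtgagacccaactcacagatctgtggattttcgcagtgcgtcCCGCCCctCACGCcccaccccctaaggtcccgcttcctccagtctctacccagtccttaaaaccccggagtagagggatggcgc
The last 2 belong to tandem clusters on chromosome 4 and lacked a gene-end peak in every library.
Cyp2j13, chr4:96077541-96077790, minus strand: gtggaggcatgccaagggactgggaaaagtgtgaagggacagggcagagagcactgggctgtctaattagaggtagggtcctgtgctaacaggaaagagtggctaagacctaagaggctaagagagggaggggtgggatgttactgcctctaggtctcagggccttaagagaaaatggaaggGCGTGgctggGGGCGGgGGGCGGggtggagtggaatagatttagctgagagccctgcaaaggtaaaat
Cyp4a29, chr4:115241794-115242043, plus strand: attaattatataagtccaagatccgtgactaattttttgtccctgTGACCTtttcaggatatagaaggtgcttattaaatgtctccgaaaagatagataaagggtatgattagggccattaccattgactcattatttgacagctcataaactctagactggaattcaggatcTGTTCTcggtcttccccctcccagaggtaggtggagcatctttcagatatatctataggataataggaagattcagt
The 250 bases held 23 CpG in Cyp46a1 and 20 in Cyp26a1, 12 in Cyp1b1, 3 in Cyp4f13, 1 in Cyp2d11, 3 in Cyp2j13 and 3 in Cyp4a29. A match is a run of letters and not a bound site, and a CpG-poor sequence occurs both with a peak (Cyp2d11) and without one (Cyp4a29).

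Fewer Cyp genes than other genes had a gene-end peak. In the dDAVP libraries 56 and 45 of the 99 members had one (56.6% and 45.5%), and in the vehicle libraries 58 and 49 (58.6% and 49.5%), below the share over all genes in each of the 4 libraries. It was constant at 38 members (38.4%), where the background over all protein-coding genes was 65.0%, and over the chromosomes that carry the members, weighted by their number of members, 68.4%. No library had one at 32 members (32.3%; background 19.2%). A further 12 members had one in 1 library (background 5.26% of genes), 7 in 2 and 10 in 3 (background 5.54%). Members and lists were picked with results of these data known, so these shares are a description.

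The tandem class fell further short than the single-copy class. A constant gene-end peak was present at 22 of 71 tandem members (31.0%; their chromosomes 67.6%) and at 11 of 19 single-copy members (57.9%; their chromosomes 71.8%), and no library had a gene-end peak at 29 tandem members and at 2 single-copy members. Per library, 46.5% and 36.6% of tandem members had a gene-end peak with dDAVP and 50.7% and 40.8% with vehicle. For single-copy members the shares were 78.9% and 68.4% with dDAVP and 78.9% and 68.4% with vehicle. The tandem share averaged 43.7 ± 6.19% and the single-copy share 73.7 ± 6.08% (SD, n = 4 libraries), a difference of -30.0 ± 2.47 percentage points. It was lower in tandem members in 4 of 4 libraries, with an exact two-sided sign-flip permutation p of 0.13, the smallest that 4 libraries allow. The gene-end window of 3 single-copy members and 1 tandem member also held an end of a gene that is no member. A peak there may belong to that gene, and without such members the difference was -25.5 points. The 9 other members were nearer the single-copy class, with a constant gene-end peak at 5 (55.6%; their chromosomes 67.7%).

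**Figure D1:**
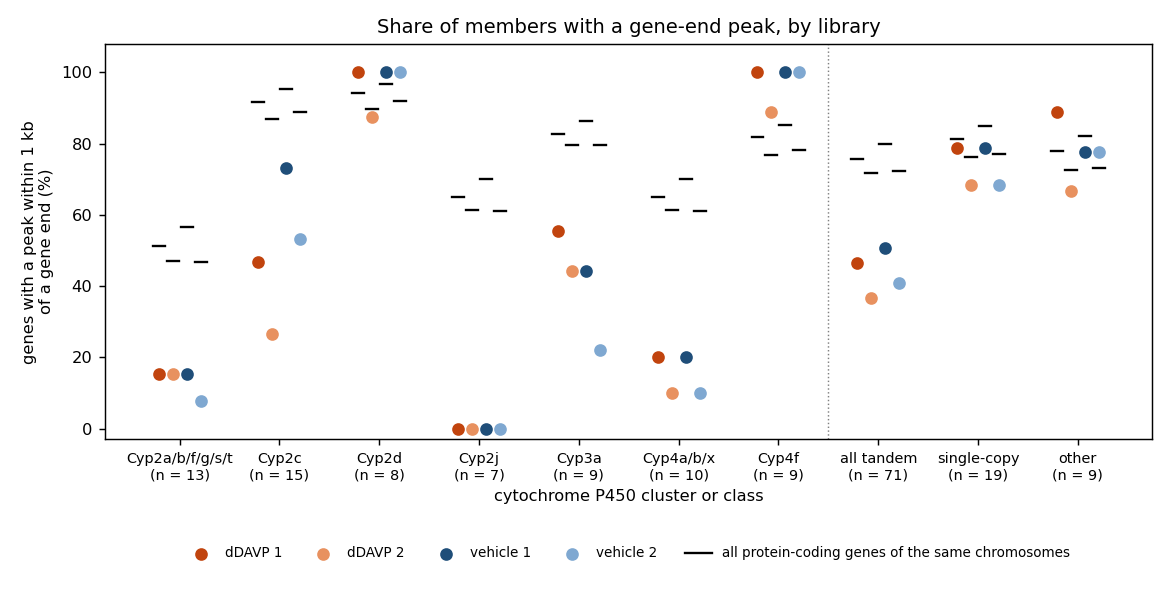
Percent of members with a gene-end peak (vertical axis) for each tandem cluster, each class and each of the 4 libraries (dots), with the share over all protein-coding genes of the same chromosomes as short black bars. Cyp2d and Cyp4f members sat between 87.5% and 100%, Cyp2j members at 0% in every library, and the single-copy class close to its chromosomes.

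The clusters lie on chromosomes with different backgrounds. All protein-coding genes of chromosomes 4 and 7 had fewer gene-end peaks (57.8% and 43.7% in all 4 libraries) than those of chromosome 15 (86.2%) or 19 (82.4%). The clusters on chromosomes 4 and 7 had a constant gene-end peak at 1 of 30 members (3.33%; their chromosomes 51.7%), and the tandem members elsewhere had one at 21 of 41 (51.2%; their chromosomes 79.2%). After subtraction of each gene's chromosome value, the tandem class lay at -29.2 and -35.0 points in the dDAVP libraries and at -29.3 and -31.4 points in the vehicle libraries. On the same scale the single-copy class lay at -2.37 and -7.93 points with dDAVP and at -6.05 and -8.61 points with vehicle. The difference between classes was then -25.0 points, with the same sign in each library (exact sign-flip p = 0.13).

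Gene-end peaks of the tandem members were also narrow. Where a member had one, its median width was 391 and 356 bp in the dDAVP libraries and 528 and 368 bp in the vehicle libraries for the tandem class. For the single-copy class it was 826 and 685 bp with dDAVP and 960 and 756 bp with vehicle, and over all genes 942 and 955 bp with dDAVP and 936 and 935 bp with vehicle. These medians rest on whichever members had a peak in that library.

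The Cyp4f cluster on chromosome 17 (chr17:32452697-32947415, 8 members, with Cyp4f18 on chromosome 8) was among those with the highest share of gene-end peaks. Its enzymes hydroxylate fatty acids and inflammatory eicosanoids. A constant gene-end peak was present at 8 of 9, namely Cyp4f39, Cyp4f17, Cyp4f16, Cyp4f37, Cyp4f40, Cyp4f15, Cyp4f14 and Cyp4f13, where chromosomes 17 and 8 had 72.0%. Cyp4f13 (chr17:32924688-32947415) had widths of 1587 and 1171 bp with dDAVP and 1068 and 1071 bp with vehicle. Cyp4f17 had 1208 and 1208 bp with dDAVP and 1406 and 1034 bp with vehicle. Cyp4f13 was wider in both dDAVP libraries than in either vehicle library, and for Cyp4f17 the groups overlapped. Here and below, groups that do not overlap are a description, since 0.33 is the smallest exact permutation p that 2 libraries a group allow. The share of all genes whose groups do not overlap was not counted. Cyp4f15 was narrow and uneven, at 512 and 73 bp with dDAVP and 413 and 252 bp with vehicle. Cyp4f18 had 476 bp and no peak with dDAVP and 534 and 631 bp with vehicle.

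The Cyp2d cluster on chromosome 15 (chr15:82370527-82794452) encodes relatives of the human drug-metabolising enzyme CYP2D6. A constant gene-end peak was found at 7 of 8 members, Cyp2d22, Cyp2d11, Cyp2d10, Cyp2d9, Cyp2d12, Cyp2d34 and Cyp2d40, against 86.2% of all genes on chromosome 15. Cyp2d11 (chr15:82389154-82394022) had widths of 1606 and 534 bp with dDAVP and 1168 and 1661 bp with vehicle. Cyp2d22 had 1007 and 868 bp with dDAVP and 932 and 1454 bp with vehicle. For both the groups overlapped. The eighth, Cyp2d26, had 490 bp and no peak with dDAVP and 550 and 502 bp with vehicle.

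The Cyp2c cluster on chromosome 19 (chr19:39006940-40187286, with Cyp2c23 farther along) differed from its surroundings. Its members oxidise drugs and turn arachidonic acid into epoxides. A constant gene-end peak was present at 4 of 15, Cyp2c55, Cyp2c67, Cyp2c68 and Cyp2c69, while 82.4% of genes on chromosome 19 had one. Cyp2c40 and Cyp2c23 had one in 3 libraries, Cyp2c54 and Cyp2c70 in 2, Cyp2c66, Cyp2c29, Cyp2c38 and Cyp2c37 in 1, and Cyp2c65, Cyp2c39 and Cyp2c50 in none. Where present, the peaks were narrow, with medians of 208 and 260 bp in the dDAVP libraries and 311 and 222 bp in the vehicle libraries. Cyp2c67 was the widest of the steady ones at 623 and 275 bp with dDAVP and 618 and 279 bp with vehicle, wide in both replicate 1 libraries and narrow in both replicate 2 libraries. Of the 13 members with a known start, 0 had a peak within 1 kb of it in all 4 libraries, against 64.6% of all genes with a known start. The same cluster was not empty inside its genes, since all 15 members held at least 1 peak in every library. Of all 21887 protein-coding genes, 17935 and 17215 held a peak inside with dDAVP and 18410 and 17288 with vehicle. The median gene length was 40.2 kb in this cluster and 17.2 kb over all genes. Together the 15 members held 182 and 127 peaks with dDAVP and 217 and 113 with vehicle, where a peak in overlapping members counts for each. Cyp2c39 alone, whose annotated span covers Cyp2c38, held 35 and 32 with dDAVP and 53 and 24 with vehicle.

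The Cyp3a cluster on chromosome 5 (chr5:145345149-146114978, with Cyp3a13 apart) encodes the main drug oxidases of liver and gut. A constant gene-end peak was present at 2 of 9 members, against 74.6% of all genes on chromosome 5. The 2 members were Cyp3a41b, at 786 and 558 bp with dDAVP and 562 and 586 bp with vehicle, and Cyp3a41a, at 443 and 675 bp with dDAVP and 778 and 368 bp with vehicle. They are near copies: 75.7% of the 50-base words in the promoter window of each also occur in another member, so reads of 50 bases need not tell them apart. Peaks of Cyp3a41a fell within 250 bp of a peak at the same place in Cyp3a41b for 4 of 8 and 6 of 11 with dDAVP and for 8 of 13 and 4 of 9 with vehicle. How many would match from peak density alone was not computed, and the part of reads placed in both copies was not tested. Cyp3a57 had a gene-end peak in 2 libraries. Cyp3a13, Cyp3a16, Cyp3a44, Cyp3a11 and Cyp3a59 had one in 1 library each, between 72 and 285 bp wide, and Cyp3a25 had none.

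In the cluster of Cyp2a, Cyp2b, Cyp2f, Cyp2g, Cyp2s and Cyp2t genes on chromosome 7 (chr7:25802469-27158564), which holds the phenobarbital-inducible Cyp2b10, 1 of 13 members had a constant gene-end peak. That was Cyp2s1, at the edge of the cluster, with 697 and 544 bp with dDAVP and 594 and 494 bp with vehicle. Cyp2t4, at the opposite edge, had 137 and 199 bp with dDAVP and 585 bp and no peak with vehicle. The 11 between them had none in any library, the first in order of position being Cyp2b10, Cyp2b13, Cyp2b9 and Cyp2a4, and 8 of the 13 had no peak inside the gene in any library either. Of all 21887 protein-coding genes, 3070 had no peak inside the gene in any library. On both flanks the nearest 3 genes, Ccdc97, Hnrnpul1 and Axl on one side and Egln2, Rab4b and Mia on the other, all had constant gene-end peaks. Of the 5 other protein-coding genes within the run, Vmn1r184, Nlrp9c, Nlrp4a, Nlrp9a and Vmn1r185, 0 had one. In the 5 Mb before the run 38 of 149 other genes had a constant gene-end peak (25.5%), and in the 5 Mb after it 114 of 171 (66.7%).

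The clusters on chromosome 4 had no constant gene-end peak either. None of the 7 Cyp2j genes (chr4:96042660-96664171), which encode arachidonic acid epoxygenases, had a gene-end peak in any library. Cyp2j8 lay wholly within a stretch of 157 kb that held no peak of any library. Cyp2j13 was the fullest inside, with 4 and 1 peaks with dDAVP and 6 and 4 with vehicle. Of the 10 Cyp4a, Cyp4b and Cyp4x genes (chr4:115106323-115647721), which include the fatty acid hydroxylases that PPAR alpha induces in liver and proximal tubule, none had a constant gene-end peak. Cyp4b1 had one in 3 (73 and 183 bp with dDAVP, and 125 bp in vehicle replicate 2). Cyp4x1 had one in both replicate 1 libraries, 81 bp with dDAVP and 383 bp with vehicle, and Cyp4a10 had 72 bp in vehicle replicate 1 alone. The other 7, among them Cyp4a29, Cyp4a12a, Cyp4a12b and Cyp4a30b, had none.

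**Figure D2:**
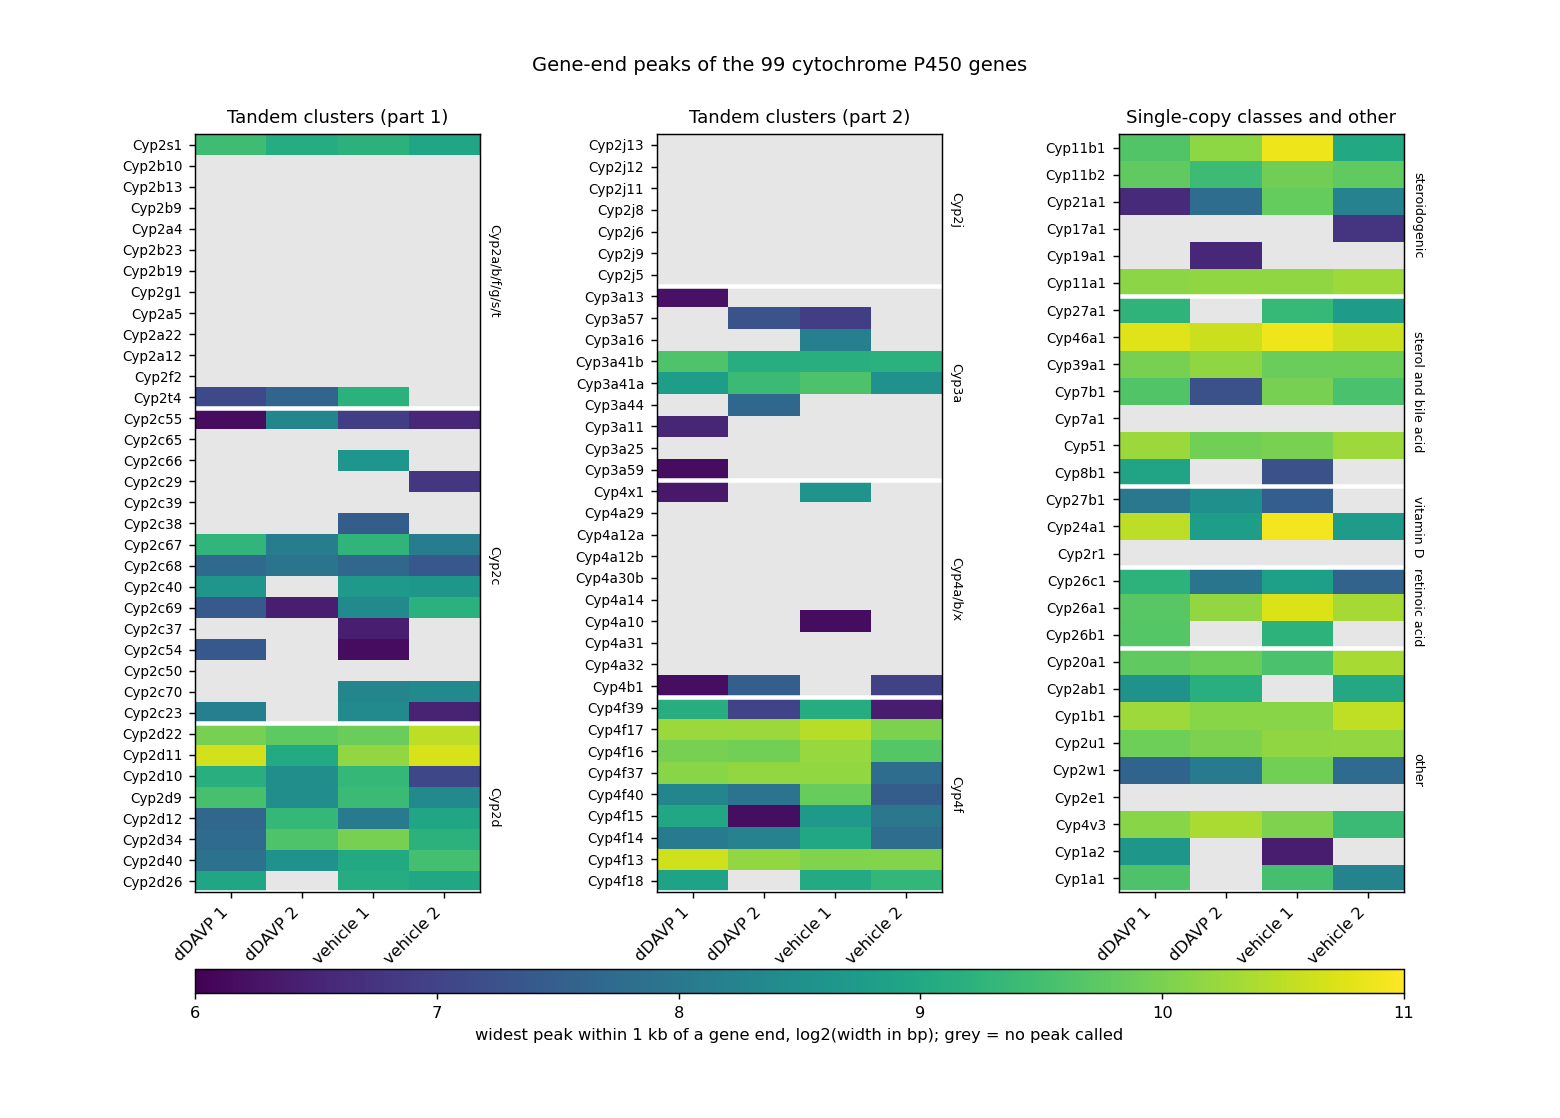
Width of the widest gene-end peak of each of the 99 members (rows, grouped by cluster or class) in each library (columns), on a log2 scale of base pairs, with grey where no peak was called. The Cyp2j rows are grey throughout, the Cyp2d and Cyp4f rows are filled in most libraries, and Cyp46a1, Cyp11a1, Cyp51, Cyp39a1 and Cyp1b1 are wide in all 4.

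Peaks over the whole length of each cluster were counted too, which does not depend on gene ends. The Cyp2d run held 34.9 and 26.2 peaks per 100 kb with dDAVP and 38.2 and 23.6 with vehicle, and the 5 Mb before it 34.1 and 25.5 with dDAVP and 41.0 and 25.6 with vehicle. The Cyp2c run held 23.7 and 16.9 with dDAVP and 28.5 and 16.6 with vehicle, below the 5 Mb before it (32.3 and 21.2 with dDAVP, 41.6 and 22.4 with vehicle) in each library. The Cyp4f run, at 16.0 and 9.30 with dDAVP and 20.6 and 9.70 with vehicle, was also below the 5 Mb on either side in each library although nearly all its members had gene-end peaks. So the order of clusters by gene ends and by density was not the same.

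The Cyp2j run held 2.41 and 1.45 peaks per 100 kb with dDAVP and 2.74 and 1.93 with vehicle. The 5 Mb before it held 1.94 and 1.82 with dDAVP and 2.04 and 1.94 with vehicle, so the region around these genes was as sparse as the genes. In those 5 Mb, nonetheless, 8 of 14 other genes had a constant gene-end peak, and in the 5 Mb after the run 12 of 23. The Cyp4a, Cyp4b and Cyp4x run held 2.96 and 2.59 with dDAVP and 3.14 and 2.40 with vehicle, between the 5 Mb before it (1.58 and 1.48 with dDAVP, 1.92 and 1.36 with vehicle) and the 5 Mb after it (5.72 and 4.64 with dDAVP, 7.22 and 4.06 with vehicle). The chromosome 7 run, at 2.51 and 2.65 with dDAVP and 3.61 and 2.21 with vehicle, was below the 5 Mb on both sides in each library. These comparisons with the surroundings were chosen after the values were seen and carry no test.

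**Figure D3:**
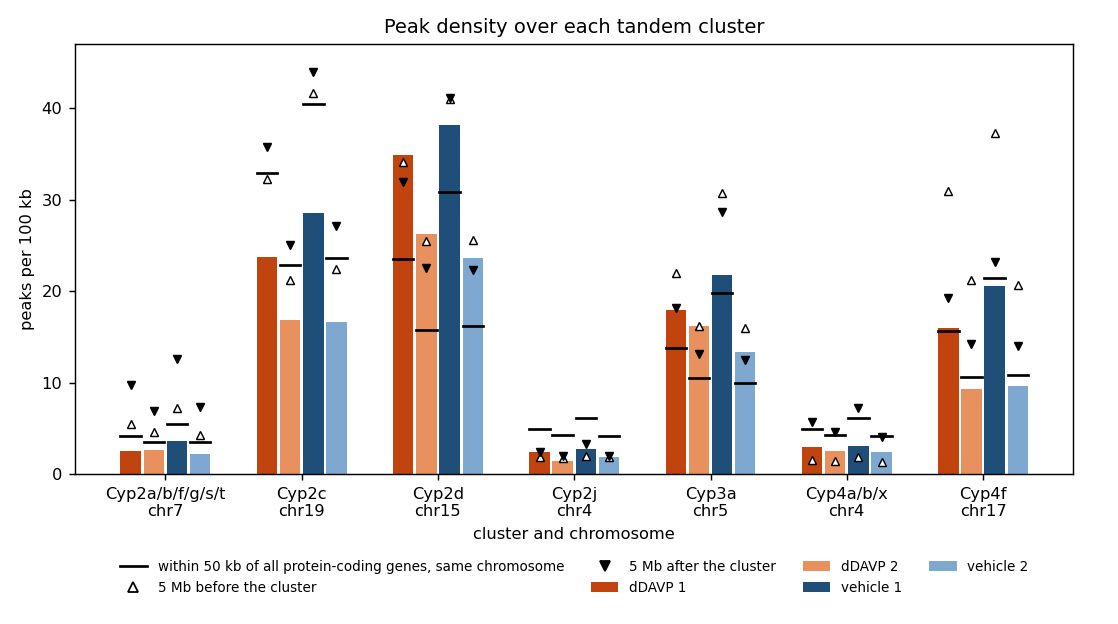
Peaks per 100 kb over each tandem run (bars, 1 per library), with the density within 50 kb of all protein-coding genes of the same chromosome (black lines) and over the 5 Mb before (open triangles) and after (filled triangles) the run. The runs on chromosomes 4 and 7 stay under 4 peaks per 100 kb in each library, those on chromosomes 19 and 15 reach 28.5 and 38.2 in vehicle replicate 1.

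The steroidogenic members ranged from wide gene-end peaks to almost none. Cyp11a1, the side-chain cleavage enzyme that starts steroid synthesis in mitochondria, had a steady one of 1121 and 1156 bp with dDAVP and 1159 and 1232 bp with vehicle (chr9:57998024-58027031). Cyp11b1 and Cyp11b2, which finish glucocorticoid and aldosterone synthesis in the adrenal, lie next to each other on chromosome 15. Cyp11b1 had 799 and 1134 bp with dDAVP and 1882 and 526 bp with vehicle, and Cyp11b2 had 883 and 685 bp with dDAVP and 960 and 873 bp with vehicle. Cyp21a1, the steroid 21-hydroxylase, had 97 and 220 bp with dDAVP and 907 and 297 bp with vehicle, so that the groups did not overlap. Cyp17a1, which makes androgen precursors, had a single peak of 109 bp in vehicle replicate 2. Cyp19a1, the aromatase, had a single peak of 94 bp in dDAVP replicate 2, but 10 and 3 peaks inside the gene with dDAVP and 19 and 0 with vehicle.

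Of the 7 sterol and bile acid members, 4 had a constant gene-end peak (57.1%; their chromosomes 71.9%). Cyp46a1, the cholesterol 24-hydroxylase of neurons, had the widest of any single-copy member by its mean over the libraries, 1723 and 1556 bp with dDAVP and 1877 and 1571 bp with vehicle (chr12:108334268-108362234). Cyp51, which demethylates lanosterol in cholesterol synthesis in every cell, had 1215 and 979 bp with dDAVP and 1019 and 1241 bp with vehicle. Cyp39a1, which acts on 24-hydroxycholesterol, had 1005 and 1159 bp with dDAVP and 922 and 939 bp with vehicle, wider in both dDAVP libraries. Cyp7b1, the oxysterol 7 alpha-hydroxylase, had 798 and 152 bp with dDAVP and 1010 and 756 bp with vehicle, and its groups overlapped. The bile acid genes of the hepatocyte were weaker. Cyp27a1 had 610 bp and no peak with dDAVP and 648 and 426 bp with vehicle. Cyp8b1 had a peak in replicate 1 alone, 482 bp with dDAVP and 151 bp with vehicle. Cyp7a1, the rate-limiting enzyme of bile acid synthesis, had no gene-end peak and no peak inside the gene in any library.

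Among the vitamin D members, Cyp24a1, which inactivates active vitamin D and is induced by its receptor, had a constant gene-end peak, 1451 and 438 bp with dDAVP and 1934 and 433 bp with vehicle. It was wide in both replicate 1 libraries and narrow in both replicate 2 libraries, with no separation by treatment. Cyp27b1, the enzyme that activates vitamin D, had 256 and 366 bp with dDAVP and 180 bp and no peak with vehicle. Cyp2r1, a 25-hydroxylase of vitamin D, had none, and none inside the gene.

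Of the retinoic acid hydroxylases, Cyp26a1 and Cyp26c1 had a constant gene-end peak. Cyp26a1 had 834 and 1170 bp with dDAVP and 1680 and 1285 bp with vehicle, narrower in both dDAVP libraries, and Cyp26c1 beside it had 600 and 246 bp with dDAVP and 450 and 194 bp with vehicle. Cyp26b1 had 826 bp and no peak with dDAVP and 603 bp and no peak with vehicle, so it followed the replicate number and not the treatment.

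Of the other members, Cyp1b1, Cyp2u1, Cyp4v3, Cyp20a1 and Cyp2w1 had constant gene-end peaks. Cyp1b1, which the Ah receptor induces in many tissues outside the liver, had 1239 and 1113 bp with dDAVP and 1113 and 1465 bp with vehicle. Cyp2u1, an enzyme of long-chain fatty acids, had 953 and 1039 bp with dDAVP and 1146 and 1174 bp with vehicle. Cyp4v3, another fatty acid hydroxylase, had 1110 and 1327 bp with dDAVP and 1053 and 683 bp with vehicle. Cyp20a1, whose substrate is unknown, had 877 and 942 bp with dDAVP and 760 and 1302 bp with vehicle. Cyp2w1 had 195 and 268 bp with dDAVP and 979 and 216 bp with vehicle. Cyp2u1 was narrower and Cyp4v3 wider in both dDAVP libraries, and for the other 3 the groups overlapped.

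The Ah receptor targets Cyp1a1 and Cyp1a2 share a locus on chromosome 9. Cyp1a1 had 783 bp and no peak with dDAVP and 732 and 301 bp with vehicle at its outermost ends, but its annotated start at 57697613 lies inside the annotated span, and a peak lay within 1 kb of that start in all 4 libraries. Cyp1a2 had 400 bp and no peak with dDAVP and 84 bp and no peak with vehicle. Cyp2ab1 had 375 and 562 bp with dDAVP and no peak and 516 bp with vehicle. Cyp2e1, the ethanol-oxidising enzyme of the liver, had none.

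Starts and strands were known for 77 members (58 tandem, 11 single-copy, 8 other) among 17492 genes with a RefSeq promoter sequence. A peak within 1 kb of a start in all 4 libraries was present at 20 of the 77 members (26.0%), against 64.6% of those genes. A peak over the window from 250 bases before to 50 after the start in all 4 libraries was present at 11 (14.3%), against 57.5%. At the start itself, a peak covered 20.7% and 19% of tandem starts with dDAVP and 15.5% and 15.5% with vehicle. It covered 54.5% and 63.6% of single-copy starts with dDAVP and 45.5% and 45.5% with vehicle, and over all protein-coding genes 60.2% and 56.6% of starts with dDAVP and 62.9% and 56.9% with vehicle. Tandem starts were covered less often than single-copy starts in each library, and single-copy starts, of which there are 11, less often than all starts in 3 of 4. Single-copy members had a peak within 1 kb of a start in all 4 libraries at 5 of 11 (45.5%) and over the promoter window at 3 of 11 (27.3%).

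**Figure D4:**
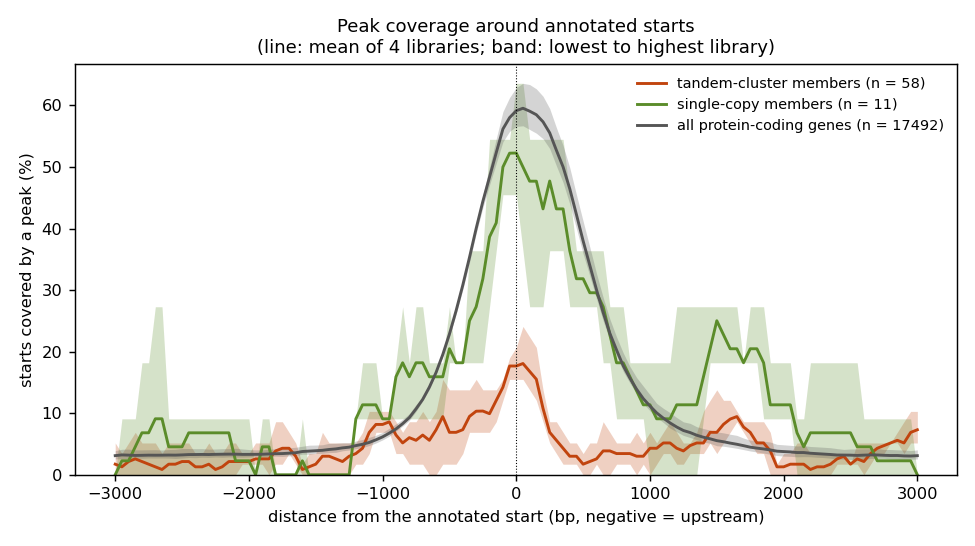
Percent of annotated starts covered by a peak (vertical axis) against distance from the start in base pairs (horizontal axis, negative upstream, 1 start per gene), as the mean over 4 libraries with the range of the libraries as a band. Tandem members stay between 15.5% and 20.7% at the start, single-copy members between 45.5% and 63.6%.

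Tandem promoters were poor in CpG, the dinucleotide that is dense in the promoters of widely expressed genes. The ratio of observed to expected CpG over the 300 bases from 250 before to 50 after the start had a median of 0.127 in tandem members and 0.341 in single-copy members, and of 0.564 over all genes. None of the 58 tandem promoters reached 0.6, and 52 were under 0.3. Among members under 0.3, a peak within 1 kb of the start in all 4 libraries was present at 13 of 60 (21.7%), and among all genes under 0.3 at 22.1%. Among members at 0.6 and over it was present at 6 of 7 (85.7%), and among all genes at 93.2%. Between 0.3 and 0.6 it was present at 1 of 10 members (10.0%), and at 63.5% of all genes. So among CpG-poor promoters the Cyp share was close to that of all genes of the same CpG content.

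Within CpG-poor promoters the members' share varied by chromosome. On chromosome 17 such promoters had a start peak in all 4 libraries at 5 of 6 members (83.3%) and at 22.9% of genes that are no member. On chromosome 19 they had one at 1 of 11 members (9.09%) and at 42.8% of other genes. On chromosome 15 they had one at 3 of 5 members (60.0%) and at 49.4% of other genes, and on chromosome 5 at 2 of 10 members (20%) and 37.9%. On chromosome 7 it was 0 of 12 members and 8.27% of other genes, and on chromosome 4 it was 0 of 10 members and 14.4%. With so few members a chromosome, these shares carry no test. Cyp2r1 stood apart on the CpG side: its promoter had a ratio of 0.710 and no peak, where of 612 promoters at 0.6 and over on chromosome 7 only 22 (3.59%) had no start peak in any library.

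**Figure D5:**
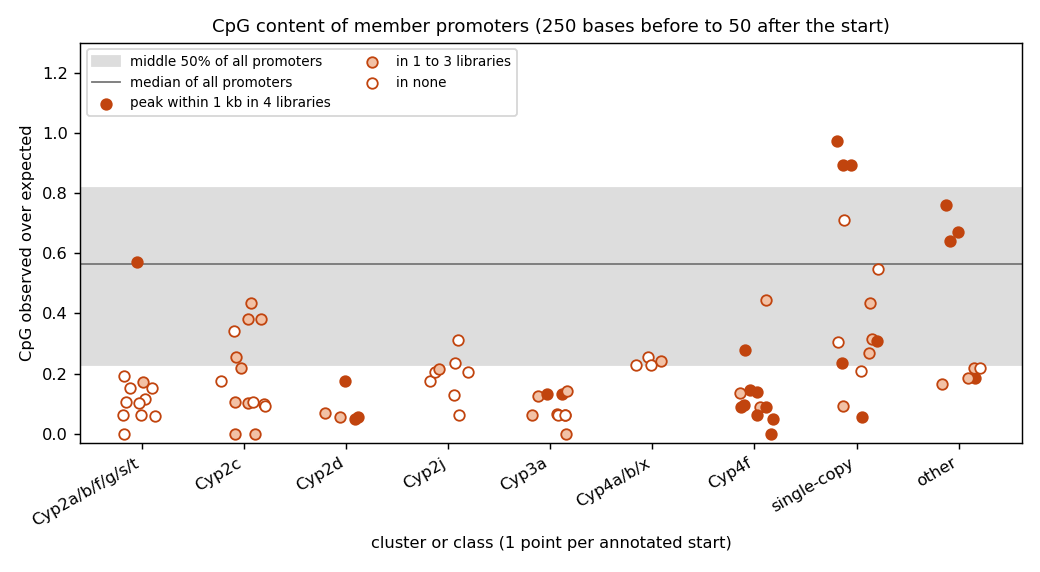
Ratio of observed to expected CpG in the promoter window (vertical axis), 1 point per annotated start, by tandem cluster and class, with the middle 50% of all promoters in grey and their median as a line. Filled points had a peak within 1 kb of the start in all 4 libraries. Of the tandem members only Cyp2s1 lies above the median of all promoters, and it is filled, while most Cyp4f and Cyp2d points are CpG-poor and many are filled.

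The motif letters differed between the classes in the same promoter window. The TATA box letters TATAAA were found in 44.8% of tandem and 36.4% of single-copy promoters, and in 14.8% of all promoters. The Sp1 box GGGCGG was found in 17.2% of tandem and 54.5% of single-copy promoters (all, 49.2%). The core TGACG of the cAMP response element was found in 3.45% of tandem and 27.3% of single-copy promoters (all, 26.2%). The Ah receptor core GCGTG was found in 13.8% of tandem, 27.3% of single-copy and 75% of the 8 other promoters (all, 41.4%). The steroid receptor letters TGTTCT were found in 34.5% of tandem promoters and in 0 of 11 single-copy promoters (all, 18.5%), and AGGTCA in 32.8% and 18.2% (all, 16.7%). CCAAT was found in 46.6% of tandem and 63.6% of single-copy promoters (all, 42.3%). These counts share the CpG content, since the Sp1, cAMP response and Ah receptor motifs each hold a CpG.

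Inside the genes the classes were close. Tandem members held 1.37 ± 0.396 peaks per 10 kb of gene and single-copy members 1.47 ± 0.530 (SD, n = 4 libraries), a difference of -0.0932 ± 0.149 (exact sign-flip p = 0.375), lower in 3 of 4 libraries. Without Cyp11b1, Cyp11b2, Cyp26a1 and Cyp26c1 the difference was 0.0579, and with each cluster as 1 unit 0.206, so its direction was not stable. Per library, tandem members held 1.52 and 1.14 per 10 kb with dDAVP and 1.86 and 0.978 with vehicle. All protein-coding genes held 1.38 and 0.977 with dDAVP and 1.85 and 0.992 with vehicle. Within 50 kb, tandem members had 17.5 ± 4.48 peaks on average and single-copy members 25.5 ± 7.37 (SD, n = 4 libraries), a difference of -8.02 ± 3.03, lower in 4 of 4 libraries (exact sign-flip p = 0.13), which shrank to -3.63 after subtraction of the chromosome values. All protein-coding genes averaged 22.6 and 16.5 with dDAVP and 29.4 and 16.7 with vehicle, above the tandem class in each library. Neighbouring members share these windows. Per 100 kb of merged windows, tandem members had 15.2 and 11.2 peaks with dDAVP and 17.8 and 10.4 with vehicle. All protein-coding genes had 13.2 and 9.29 with dDAVP and 17.6 and 9.40 with vehicle, lower in each library. Single-copy members had 21.2 and 13.8 with dDAVP and 24.7 and 14.6 with vehicle.

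The windows of 50 kb around all members held 2613 merged regions. Of these, 495 (18.9%) had a peak in all 4 libraries, against 15.7% of regions genome-wide. Of the 495, 94 lay inside a member, 49 at an end of a member and 352 at neither. The 352 include regions at the ends of genes that are no member, such as Cox19 and Adap1. Several of the widest lay away from gene ends. On chromosome 4, where the Cyp4a genes lacked gene-end peaks, a region at chr4:115350408-115351896 lay 17593 bp from Cyp4a12a, outside every protein-coding gene, with widths of 1391 and 1406 bp with dDAVP and 1372 and 1469 bp with vehicle. A region at chr19:39412426-39413962 lay inside the spans of Cyp2c39 and Cyp2c38 with 1494 and 1360 bp with dDAVP and 1354 and 1360 bp with vehicle. Neither varied by more than a small part of its width, and neither separated the treatments. A region at chr15:82542405-82545090, 9953 bp from Cyp2d12 and outside genes, was uneven at 2500 and 1494 bp with dDAVP and 1059 and 1677 bp with vehicle. A region of 2321 and 1962 bp with dDAVP and 2000 and 2206 bp with vehicle lay 26203 bp from Cyp51, inside Akap9 (chr5:4052151-4054471).

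The comparison of dDAVP with vehicle asked whether 30 minutes of V2 receptor stimulation changed where peaks were called. At the Cyp genes no difference passed its test, and with 2 libraries a group none of these permutation tests could reach 0.05. The number of members with a gene-end peak was 56 and 45 with dDAVP and 58 and 49 with vehicle, a mean of 50.5 ± 7.78 with dDAVP and 53.5 ± 6.36 with vehicle (SD, n = 2 each) and a difference of -3 (exact two-sided permutation p = 0.667, where 0.33 is the smallest that 2 libraries a group allow). The difference was 2.5 without dDAVP replicate 2 and 1.5 without vehicle replicate 1, so single libraries set its sign. Peaks within 50 kb of members numbered 1554 and 1115 with dDAVP and 1848 and 1094 with vehicle, a difference of -136 in the means (exact permutation p = 1.00), which became 83.0 without dDAVP replicate 2 and 240 without vehicle replicate 1. As a share of all peaks of the library they made up 0.533% and 0.542% with dDAVP and 0.469% and 0.529% with vehicle. This share was higher in both dDAVP libraries by 0.0387 points on average, with the smallest p the design allows (exact permutation p = 0.33), and the vehicle library with the low share was the one with the longest list. Without that library the difference was 0.00895.

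No member had gene-end peaks specific to dDAVP, in both of its libraries and in none of the vehicle ones (background 0.210% of genes). The count was 2 or 3 when 1 library was left out, so that a lone library stood for its group. Cyp2c70 was the only member with the reverse pattern, present with vehicle alone (311 and 337 bp; background 0.864%). That count was 7 without dDAVP replicate 1, 3 without vehicle replicate 1 and 6 without vehicle replicate 2. For counts with 1 library left out the share over all genes was not counted, and the backgrounds of 0.210% and 0.864% do not apply. In contrast, 5 members had a gene-end peak in both replicate 1 libraries and in neither replicate 2 library (background 2.93%): Cyp4x1, Cyp26b1, Cyp1a2, Cyp8b1 and Cyp2c54. The opposite, both replicate 2 libraries alone, was found at 0 members (background 0.155%), and 5 members had one in vehicle replicate 1 alone (background 3.42%): Cyp4a10, Cyp3a16, Cyp2c66, Cyp2c38 and Cyp2c37. The replicate 1 lists were the longer ones.

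A peak over the promoter window was present at 29 and 25 of the 77 members with dDAVP and at 24 and 20 with vehicle, a mean of 27.0 ± 2.83 with dDAVP and 22 ± 2.83 with vehicle (SD, n = 2 each), while over all promoters the share was 65.7% and 61.7% with dDAVP and 68.6% and 62.1% with vehicle. The groups of members did not overlap, with a difference of 5.00 (exact permutation p = 0.33, the smallest possible), and this readout was chosen after the data were seen. Within 1 kb of the start the counts were 38 and 35 with dDAVP and 36 and 33 with vehicle (exact permutation p = 0.667), and the groups overlapped.

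Regions specific to 1 treatment, present in both of its libraries and in none of the other, made up similar shares around members and elsewhere. There were 48 with dDAVP alone (1.84%, against 1.61% of regions genome-wide) and 97 with vehicle alone (3.71%, against 3.35%). Both replicate 1 libraries alone had 229 (8.76%, against 8.79%). One of the dDAVP regions lay inside Cyp24a1 (chr2:170493221-170493705), with 396 and 382 bp with dDAVP and no peak with vehicle. Another lay inside Cyp2c39 (chr19:39478845-39479397), with 305 and 553 bp with dDAVP and none with vehicle. One of the vehicle regions lay at the end of Cyp4f18 (chr8:72009597-72010227), with none with dDAVP and 325 and 631 bp with vehicle, while dDAVP replicate 1 had a gene-end peak of Cyp4f18 outside this region. Another, with none with dDAVP and 1045 and 234 bp with vehicle, lay 5484 bp from Cyp26b1 (chr6:84564886-84565930).

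Widths were compared with limma on the log2 scale over all 14219 genes with a constant gene-end peak, 38 of them members. At an adjusted p under 0.05 it called 0 members and 0 genes (0% called); at an unadjusted p under 0.05 it took 0 members and 576 genes (4.05%). That count of members was 4 without dDAVP replicate 1, 2 without dDAVP replicate 2, 6 without vehicle replicate 1, 1 without vehicle replicate 2 and 2 with the replicate block (596 to 1007 genes), and limma called 0 members and 0 genes in each of these. The smallest member p was 0.0591, for Cyp2c69, with 168 and 86 bp with dDAVP and 331 and 583 bp with vehicle, a log2 difference of -1.69 (SE 0.59; limma adjusted p = 1). Cyp21a1 differed by -1.84 (SE 0.83), Cyp26a1 by -0.59 (SE 0.27), Cyp4v3 by 0.49 (SE 0.24), Cyp4f13 by 0.36 (SE 0.20), Cyp39a1 by 0.22 (SE 0.13) and Cyp2u1 by -0.22 (SE 0.11), and none passed the test. The groups also did not overlap for Cyp2d40 (-0.90, SE 0.52), Cyp2c68 (0.49, SE 0.31) and Cyp11a1 (-0.06, SE 0.11), which did not pass either.

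The partners of these enzymes had constant gene-end peaks at a larger share than the tandem members (31.0%), a class below all genes (65.0%). Of the electron donors and heme enzymes, 11 of 12 matched genes had one in all 4 libraries (background 65.0% of all genes), including Por, the electron donor of microsomal P450 enzymes, at 480 and 603 bp with dDAVP and 706 and 628 bp with vehicle, and Fdx1, the mitochondrial ferredoxin, at 962 and 742 bp with dDAVP and 776 and 847 bp with vehicle. The exception was Cyb5r3, a cytochrome b5 reductase, with a peak in 2 libraries. In cholesterol synthesis it was 16 of 17 (94.1%; their chromosomes 63.4%). The exception there was Fdft1, the squalene synthase, which had a peak in dDAVP replicate 1 alone. In the steroid partners it was 8 of 11 (72.7%), close to the share of their chromosomes (70.6%), with Akr1c18 in none.

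Of the transcription factors that regulate P450 genes, 20 of 26 had a constant gene-end peak (76.9%; their chromosomes 70.4%), and Ahrr and Rarb had none. The Ah receptor gene Ahr had 1190 and 1200 bp with dDAVP and 1211 and 1183 bp with vehicle, and the vitamin D receptor gene Vdr 966 and 1531 bp with dDAVP and 897 and 858 bp with vehicle. Nr1i2, the xenobiotic receptor PXR, had 644 and 1082 bp with dDAVP and 861 and 510 bp with vehicle, and Nr1i3, its relative CAR, had peaks in replicate 1 alone, 259 bp with dDAVP and 183 bp with vehicle. No gene of these lists had a gene-end peak specific to either treatment.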

How the data were processed

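ATAC-seq was made from mpkCCD clone 11 cells, 2 libraries with dDAVP and 2 with vehicle, grouped by title. The authors deposited 1 peak list per library with chromosome, start and end; these deposited positions are the only values, with no score, summit or read depth. Per the submitters' processing notes reads on the mm10 build went through cutadapt, Bowtie2, SAMtools, Picard, bedtools and MACS2, whose order, versions and settings, with any shift to the Tn5 site, were not stated in those notes. The lists differ 1.91 times in length, and a longer list holds more peaks in total but not at every set of genes. The longest, vehicle replicate 1, had a promoter-window peak at 24 of 77 members, against 29 and 25 with dDAVP.

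Gene spans came from RefSeq on GRCm38.p6, the same assembly as mm10. The table places 105 autosomal genes before 3 Mb, none with a peak in all 4 libraries; they stayed in the background and none is a member. Peaks with 1 bp in a window counted, and peaks of the 4 libraries were merged into regions. Classes were compared with exact sign-flip permutations over libraries, treatments with exact permutations, 2 libraries against 2, and log2 widths with limma 3.58.1 in R 4.3.3 after quantile normalization, with Benjamini-Hochberg adjustment over all genes at 0.05. Counting used Python 3.11.15, pandas 2.3.3 and scipy 1.17.1. Scoring and limma were tested on simulated data. The simulated widths varied less than the real ones, so this test does not show what change limma could detect here. Members and lists were chosen with earlier results of these data known; the promoter window as a treatment readout and the 5 Mb surroundings were added after seeing the data. Named are all single-copy and other members, tandem members with a gene-end peak and up to 4 without one per cluster, and up to 6 of the widest regions of each kind; other named genes were picked after their values were seen. Not all regions of the vehicle list are reported here.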

Additional observations from a re-analysis of the deposited data

How the results depend on the processing

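The lower gene-end share of tandem members kept its sign under every alternative tried, from -32.9 points with peaks at least as wide as the library median to -23.0 without the neighbouring pairs, and from -30.8 to -29.2 when 1 library was left out. The difference inside genes was 0.0579 without the neighbouring pairs and 0.206 with each cluster as 1 unit, and from -0.150 to -0.0322 without 1 library. The count of members with a constant gene-end peak, 38, was 23 with peaks at least as wide as the library median. Over all genes that count went from 14219 to 12717, a relatively smaller drop. It was 20 members at annotated starts only (26.0% of the 77 with a known start; all genes, 64.6%). In any 1 library it was 67 members, where all genes had 80.8%. It was 38 to 44 members without 1 library, for which all genes were not counted. The dDAVP difference in members with a gene-end peak was 2.00 at annotated starts only and -8.50 to 2.5 without 1 library, and that in peaks within 50 kb was 60.0 with equally long lists and -514 to 240 without 1 library. Members with a peak in both dDAVP libraries alone numbered 1 with wide peaks, 1 with equally long lists, 1 at annotated starts only, and 2 to 3 without 1 library. Those in both vehicle libraries alone numbered 3 with wide peaks and 1 to 7 without 1 library. For these counts in 1 treatment alone, the share over all genes was not counted under the alternatives. The cause of these shifts was not tested. With 1 library left out a group of 1 remains: no permutation test was made, and limma, which then assumes that the lone library varies like the others, called 0 members.

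With the libraries paired by replicate number (replicate block), the gene-end difference stayed -3 (exact permutation p = 0.50), the promoter window difference 5.00 (exact permutation p = 0.50), and limma still called 0 members. Deviations of replicate 1 from their group means correlated at r = 0.221 over 14219 genes, and the labels do not say that a number marks a shared batch. Unknown depth limits all statements on missing peaks.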

Other observations

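Other detoxification families showed a like range. A constant gene-end peak was present at 22 of 22 glutathione transferase (Gst) genes, 17 of 21 aldehyde dehydrogenase (Aldh) genes, 10 of 22 glucuronosyltransferase (Ugt) genes, 4 of 21 sulfotransferase (Sult) genes and 1 of 7 flavin monooxygenase (Fmo) genes, where all protein-coding genes had 65.0%. The 10 Ugt genes with none in any library were all of the Ugt2a and Ugt2b groups, and 7 of the 11 such Sult genes were Sult2a genes. Rarg, a retinoic acid receptor gene, had gene-end widths of 2648 and 2550 bp with dDAVP and 1225 and 973 bp with vehicle; it was picked out after its values were seen, and limma called no gene.

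Of the 58 tandem promoters, 22 shared at least 1 word of 50 bases with another member's promoter, and none of the single-copy promoters did. Cyp2b13 and Cyp2b9 shared 61.0% of such words and had no start peak in any library, while Cyp4f16 and Cyp4f37 shared 19.9% and had a peak over the promoter window in all 4. How reads with several possible places were treated is not given in the sources used here, and its part in these counts was not tested.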
